A study of Mus musculus with 15 samples.

Results

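The mouse chemokine ligands and their signalling receptors were measured in nests of basal cell carcinoma collected by laser capture. Members were all protein-coding genes whose symbol is Ccl, Cxcl, Ccr or Cxcr followed by a number and an optional letter, with Cx3cl1, Cx3cr1, Xcl1 and Xcr1 added. The rule gave 57 of the 36528 genes listed in the deposited tables, 39 ligands and 18 receptors, and it used no measured value. Every animal carried K14Cre-ER, a tamoxifen-dependent Cre recombinase driven by the keratin 14 promoter, together with the alleles Ptch1fl/fl and p53fl/fl and with Lgr5GFP, so that recombination was limited to keratin 14-expressing epithelium and no group had intact, unfloxed alleles. The 3 groups of 5 libraries were nests left after 28 days of vismodegib, which blocks the Hedgehog transducer Smoothened, untreated nests labelled Ki67+, Ki67 being an antigen of dividing cells, and untreated nests labelled Ki67-. Age, sex and vismodegib dose are not in the labels used here. The labels link no library to a mouse, so nests of a group may come from the same mouse; p-values would then be too small, and they may measure technical spread in part. Accession ranges differ between the Ki67- libraries and the other 10, and any batch behind that cannot be told apart from the group.

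Chemokines are small secreted proteins that bind heparan sulfate on cells and matrix and draw leukocytes along their gradient through G protein-coupled receptors. Their families are named by the spacing of the first cysteines (CC, CXC, XC and CX3C), and most ligands and receptors of the CC and CXC families have several partners. In skin, keratinocytes make some of them at rest and many more when inflamed, fibroblasts are a main source of Cxcl12, and Langerhans cells, dendritic cells and T cells supply others and most of the receptors.

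Total counts were 6413055 to 10328822 per library after vismodegib, 4929869 to 8359195 in Ki67+ nests and 4887381 to 7158143 in Ki67- nests. The 57 genes made up 0.0431% to 0.1535% of the counts in a library. Markers of keratinocytes and tumour epithelium were detected in all libraries. Krt14 was at 2270 to 3000 CPM (counts scaled to a common library size) after vismodegib, 694 to 1250 CPM in Ki67+ and 573 to 1050 CPM in Ki67- nests. Of the 7 such genes tested, 4 rose and 1 (Krt17) fell after vismodegib against Ki67+ nests (edgeR adjusted p under 0.05). Against Ki67- nests 4 rose and 0 fell. Of all genes tested, 26.0% and 31.9% were called in these comparisons. Ki67- library 5 stood apart with 19669 genes detected, against 21653 to 23322 in the other 14. Ki67- library 4 stood apart in the chemokines themselves, as described below, and member values that leaving it out changes by over 1.5 times or moves across the threshold are given both ways. Xist counts were above those of Ddx3y, a gene of the Y chromosome, in 3 vismodegib libraries (1, 2 and 3), 1 Ki67+ library (5) and 1 Ki67- library (5), and this was a covariate in an alternative fit.

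A member counted as expressed here when it reached 10 counts in 5 or more of the 15 libraries, and 33 of the 57 did. They were 20 ligands (Ccl1, Ccl2, Ccl6, Ccl7, Ccl8, Ccl9, Ccl11, Ccl17, Ccl22, Ccl25, Ccl27a, Ccl28, Cx3cl1, Cxcl1, Cxcl9, Cxcl10, Cxcl12, Cxcl14, Cxcl16 and Xcl1) and 13 receptors (among them Ccr1, Ccr2, Ccr4, Ccr6, Ccr9, Ccr10, Cx3cr1, Cxcr2, Cxcr4, Cxcr5, Cxcr6 and Xcr1). Of these, 11 had at least 10 counts in all 15 libraries, among them Cxcl9, Cxcl12, Cxcl14, Cxcl16, Ccl25, Ccl28, Ccr2, Ccr9, Cxcr4 and Cxcr6. The filter on low counts used for testing kept 32 of the 33 and dropped Ccl6. Among the other 24, Ccl3, Ccl4, Ccl5, Ccl12, Ccl20, Cxcl2, Cxcl3, Cxcl5, Cxcl13, Ccr7, Ccr8 and Cxcr3 reached 10 counts in at least 1 library, so that with Ccl6 there were 13 such genes below the filter. A further 6 had some counts but never 10 (Ccl21a, Ccl24, Cxcl15, Cxcl17, Ccr3 and Cxcr1). Ccl19, Ccl21b, Ccl21c, Ccl21d, Ccl26 and Ccl27b had no count in any library. Over the 105541861 counts of all libraries, a count of 0 allows a level of up to 0.0284 CPM (3 counts, counting error only). The Ccl21 genes, Ccl19 and Ccl27b lie in duplicated stretches with near-identical copies, and reads that align to more than 1 copy were not counted, so these values and those of Ccl27a are uncertain as levels.

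**Figure D1:**
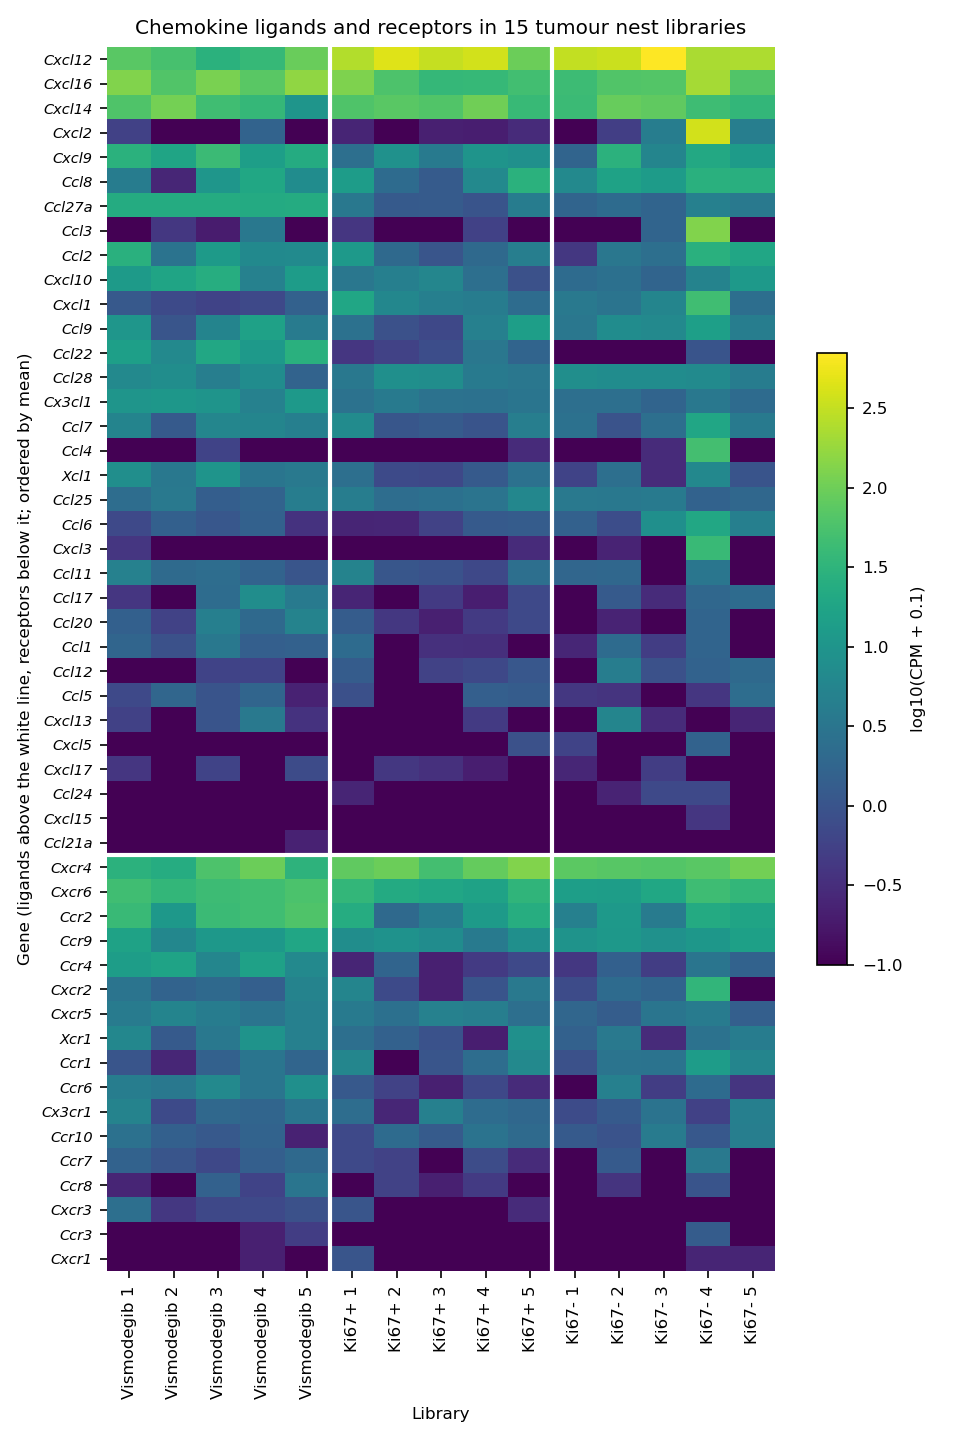
Level of 50 ligands and receptors with a count in any library (rows, ordered by mean within ligands and receptors) in each of the 15 libraries (columns), as log10(CPM + 0.1). Cxcl12 is darker across the vismodegib columns, Ccl27a, Ccl22 and Ccr4 are brighter there, and Cxcl2, Ccl3, Ccl4 and Cxcl3 are bright in Ki67- library 4.

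Levels were compared between genes only per transcript length, on the deposited RPKM scale (reads per kilobase and library size, adjusted by the submitters with size factors). After vismodegib the highest mean was that of Cxcl16, the membrane-bound ligand of Cxcr6, at 11.9 ± 4.32 RPKM (SD, n = 5 here and below). It was followed by Cxcr4, the receptor of Cxcl12, at 7.06 ± 4.52 RPKM, by Cxcl14, a chemokine of resting epithelium, at 6.10 ± 4.21 RPKM, and by the CC ligands Ccl8 at 4.47 ± 4.02, Ccl2 at 3.82 ± 3.32 and Ccl27a at 3.76 ± 0.0366 RPKM. The ranges of mean ± SD overlapped between neighbours in this order. In Ki67+ nests the order began with Cxcr4 at 13.4 ± 4.59 RPKM, Cxcl12 at 11.7 ± 5.37 RPKM, Cxcl14 at 7.94 ± 2.69 RPKM and Cxcl16 at 6.77 ± 4.09 RPKM, again with overlapping spreads. In Ki67- nests Cxcl2 had the highest mean, 20 ± 43.3 RPKM, with 98.0% of its counts in library 4. Below it came Cxcl12 at 14.3 ± 7.85 RPKM, Cxcr4 at 11.8 ± 2.51 RPKM and Cxcl16 at 9.84 ± 7.53 RPKM. Cxcl12 after vismodegib was at 2.16 ± 0.969 RPKM. The total over the 57 genes was 557 ± 75.5 CPM after vismodegib, 652 ± 114 CPM in Ki67+ and 902 ± 401 CPM in Ki67- nests, and without Cxcl12 it was 500 ± 66.7, 348 ± 86 and 536 ± 440 CPM. The other 4 Ki67- libraries, without library 4, were at 741 ± 207 CPM for all members and at 342 ± 79.5 CPM without Cxcl12 (SD, n = 4), so that library 4 sets both the mean and the spread of the second value.

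The comparison of vismodegib with untreated Ki67+ nests asked which chemokines differ between tumour that remains under Smoothened inhibition and proliferating tumour. Ccl27a, Cx3cl1, Ccl22, Ccl17, Cxcl9, Cxcl10, Ccr4, Ccr6 and Cxcr6 rose, and Cxcl12 and Cxcl1 fell. These are 11 of the 32 members tested, beside 26.0% called among all 17282 genes tested. The members' median log2 fold change was 0.77, beside -0.02 over all genes, and 15 of the 32 had an unadjusted p under 0.05. For 7 members all vismodegib libraries lay above all Ki67+ libraries and for 2 all lay below, beside 20.3% of all genes without overlap. Against Ki67- nests Ccl27a, Cx3cl1, Ccl22, Cxcl10 and Ccr4 rose and Cxcl12 and Cxcl1 fell, 7 of 32, beside 31.9% called among all genes. There the median was 0.33, beside -0.03 over all genes, 12 had an unadjusted p under 0.05, and 4 members were higher and 2 lower without overlap, beside 20.5% of all genes. Both comparisons use the same 5 vismodegib libraries, so they are not independent. The share of members called was thus 34.4% in the first and 21.9% in the second, on either side of the background. Ccl22, Ccr6 and Ccr4 reached 10 counts in all 5 vismodegib libraries but in 1, 0 and 1 of the Ki67+ and 0, 2 and 3 of the Ki67- ones, so they passed the filter through the group in which they were high. Cxcl1 reached 10 counts in 1 vismodegib library but in all 5 libraries of each untreated group. It thus passed through the groups in which it was high. Ccl17 reached 10 counts in 3 vismodegib, 0 Ki67+ and 2 Ki67- libraries.

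**Figure D2:**
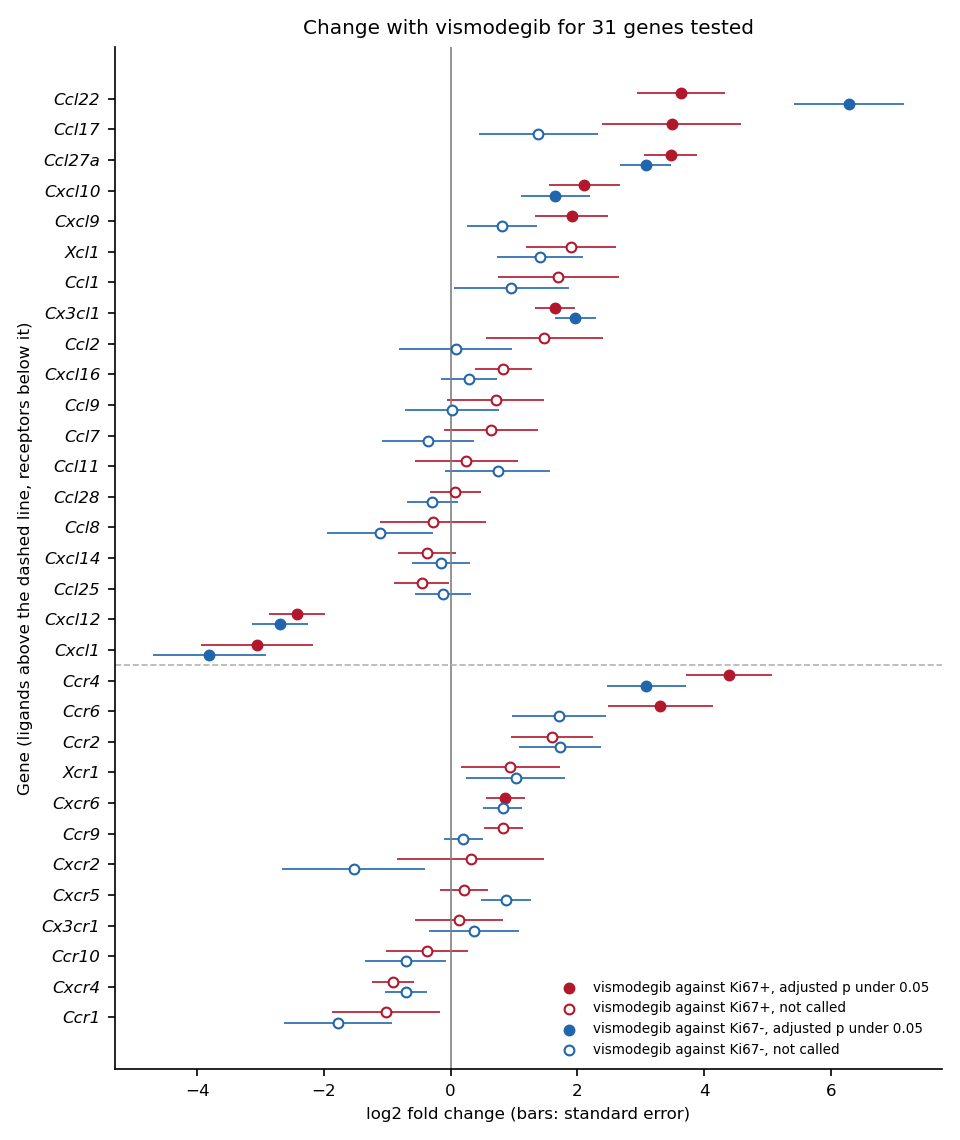
Log2 fold change (points) and its standard error (bars) of vismodegib against Ki67+ (red) and against Ki67- nests (blue) for 31 of the 32 genes tested, with filled points for adjusted p under 0.05. Called values run from -3.06 for Cxcl1 to 4.39 for Ccr4 in the first comparison and from -3.81 for Cxcl1 to 6.29 for Ccl22 in the second.

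Among the epithelial ligands, Ccl27a, made by keratinocytes and known for drawing Ccr10-bearing T cells to skin, was the most uniform. It was 23.3, 22.9, 23.5, 22.6 and 23 CPM in vismodegib libraries 1 to 5, 3.38, 1.13, 1.19, 0.914 and 4.05 CPM in Ki67+ libraries 1 to 5 and 1.61, 2.12, 1.62, 4.68 and 3.44 CPM in Ki67- libraries 1 to 5; values are given in this library order throughout. All vismodegib libraries lay above all untreated ones. The mean was 23.1 ± 0.326 CPM against 2.13 ± 1.47 and 2.70 ± 1.34 CPM, so that the log2 fold change was 3.47 (SE 0.413, adjusted p = 8.95e-06 in edgeR's quasi-likelihood test) against Ki67+ and 3.08 (SE 0.402, adjusted p = 1.88e-05) against Ki67- nests. Ccl27a, on chromosome 4 at chr4:41769467-41774225 of GRCm38.p6, overlaps Il11ra1, and use of strand in the counting is not given in the sources used here. Il11ra1 itself was at 13.6 ± 1.56, 12.1 ± 2.66 and 16.9 ± 5.88 CPM in the 3 groups (log2 fold change 0.17, adjusted p = 0.657, and -0.32, adjusted p = 0.335). The 6 markers of suprabasal epidermis, all called higher in both comparisons, summed to 2899 to 3714 CPM after vismodegib, 55.6 to 322 CPM in Ki67+ and 52.5 to 170 CPM in Ki67- nests; their part in the Ccl27a result was not tested. In such bulk libraries, fewer cells of a type and less RNA per cell cannot be told apart.

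Cx3cl1 (fractalkine), a membrane-tethered ligand of epithelium and endothelium, was 10.2, 10.6, 9.7, 4.86 and 11.5 CPM after vismodegib, 2.76, 3.7, 2.73, 2.63 and 3.03 CPM in Ki67+ and 2.42, 2.41, 1.62, 3.32 and 2.09 CPM in Ki67- nests. Vismodegib library 4 was the lowest of its group and still lay above all untreated libraries. Its log2 fold change was 1.65 (SE 0.314, edgeR adjusted p = 0.000704) and 1.97 (SE 0.319, adjusted p = 0.000152). The 4 endothelial markers tested were called in neither comparison. Cx3cr1, its receptor on monocytes, Langerhans cells and some T cells, was 5.09, 0.632, 1.88, 1.7 and 3.01 CPM after vismodegib, 2.3, 0.161, 4.63, 2.17 and 1.82 CPM in Ki67+ and 0.645, 1.13, 2.83, 0.453 and 4.49 CPM in Ki67- nests. These ranges overlapped, and neither comparison was called (log2 fold change 0.13, adjusted p = 0.913, and 0.37, adjusted p = 0.724).

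Cxcl14 was 61.8, 109, 46.5, 36.1 and 10.2 CPM after vismodegib, 60.8, 71.7, 64.2, 103 and 39 CPM in Ki67+ and 42.1, 89.4, 80.4, 45 and 34.6 CPM in Ki67- nests. Cxcl16 was 131, 63.9, 117, 73.7 and 161 CPM, 126, 60.1, 36.1, 38 and 47.5 CPM and 42.8, 62.3, 65.6, 212 and 63.7 CPM in the same groups. Both overlapped between all groups and neither was called: the log2 fold changes of Cxcl14 were -0.37 (adjusted p = 0.597) and -0.15 (adjusted p = 0.832), and those of Cxcl16 were 0.83 (adjusted p = 0.198) and 0.29 (adjusted p = 0.656), the second 0.90 (adjusted p = 0.0627) without Ki67- library 4. For Cxcl16, Ki67+ library 1 decided the first of these, since without it the value was 1.27 (adjusted p = 0.0398). Cxcl16 overlaps Zmynd15, and reads of overlapping genes cannot be told apart here. Ccl28, a mucosal ligand that shares Ccr10 with Ccl27a, was 6.47, 7.59, 4.35, 7.41 and 1.57 CPM, 3.38, 8.04, 7.6, 3.77 and 3.24 CPM and 7.91, 7.37, 7.27, 6.79 and 4.04 CPM after vismodegib, in Ki67+ and in Ki67- nests. Ccl25, best known from thymus and gut as the ligand of Ccr9, was 2.31, 3.48, 1.29, 1.58 and 4.19 CPM, 4.15, 2.25, 2.49, 2.97 and 5.87 CPM and 3.55, 3.4, 3.63, 1.51 and 1.8 CPM. Neither gene was called, with log2 fold changes of 0.07 and -0.29 for Ccl28 and of -0.46 and -0.12 for Ccl25. Ccl20, the ligand of Ccr6 made by inflamed keratinocytes, was below the filter, with 1.39, 0.474, 4.45, 1.94 and 5.24 CPM after vismodegib, 1.23, 0.322, 0.119, 0.343 and 0.607 CPM in Ki67+ and 0, 0.142, 0, 1.66 and 0 CPM in Ki67- nests. Its 113 counts after vismodegib stood against 17 and 12, ratios after scaling of 5.68 (95% interval 3.39 to 10.1, counting error only) and 7.52 (4.14 to 15), with overlapping libraries. Of the 12 counts in Ki67- nests, 11 (91.7%) came from library 4. Against the 1 count in the other 4, the ratio was 71.3 (95% interval 12.5 to 2840). Some alternative fits kept and called Ccl20. Against Ki67- nests these were the fits without a filter, without vismodegib library 1 or 2, without any 1 Ki67+ library and without Ki67- libraries 4 and 5. Against Ki67+ nests they were those without vismodegib library 2, Ki67+ library 1, Ki67- library 5 or Ki67- libraries 4 and 5 together.

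Among the neutrophil-attracting ligands of Cxcr2, Cxcl1 was the single one tested. It was 1.08, 0.632, 0.495, 0.608 and 1.44 CPM after vismodegib, 19, 5.95, 4.4, 4.0 and 2.22 CPM in Ki67+ and 3.55, 2.97, 5.45, 45.7 and 2.39 CPM in Ki67- nests. All vismodegib libraries lay below all untreated ones, and Ki67+ library 1 and Ki67- library 4 were far above the rest of their groups. Cxcl1 fell, with a log2 fold change of -3.06 against Ki67+ nests (SE 0.884, edgeR adjusted p = 0.0172) and -3.81 against Ki67- nests (SE 0.895, adjusted p = 0.00404). The first call ended with limma-voom (adjusted p = 0.0585), with the Xist covariate (adjusted p = 0.0792) and without Ki67+ library 1 (log2 fold change -2.28, adjusted p = 0.0524). The second call was kept in all 21 alternatives that gave an adjusted p (0.00211 to 0.0449), but its size rested on Ki67- library 4. Without that library it was -2.06 (adjusted p = 0.0131), and without libraries 4 and 5 it was -2.21 (adjusted p = 0.0132). With limma-voom it was -2.82 and with the Xist covariate -3.04.

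Cxcl1, Cxcl2 and Cxcl3 are neighbours on chromosome 5 (chr5:90786101-90905938 holds them and Cxcl15 and no other protein-coding gene), and all 3 were at their highest in Ki67- library 4. Their promoters are shown because the 3 carry the same 10-base motif of the NF-kappaB type close to the start of transcription. The sequences are RefSeq's, build GRCm38.p6, plus strand, the 150 bases that end just before the annotated start (chr5:90891095-90891244 for Cxcl1, chr5:90903749-90903898 for Cxcl2 and chr5:90785951-90786100 for Cxcl3). Capitals mark each match to GGGAANNNCC on either strand, with overlapping matches joined.
Cxcl1: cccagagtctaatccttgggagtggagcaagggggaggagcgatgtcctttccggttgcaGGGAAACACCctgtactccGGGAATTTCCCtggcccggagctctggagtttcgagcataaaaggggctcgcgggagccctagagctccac
Cxcl2: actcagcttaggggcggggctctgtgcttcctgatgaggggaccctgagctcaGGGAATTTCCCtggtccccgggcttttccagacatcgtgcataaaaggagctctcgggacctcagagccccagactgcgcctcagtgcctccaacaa
Cxcl3: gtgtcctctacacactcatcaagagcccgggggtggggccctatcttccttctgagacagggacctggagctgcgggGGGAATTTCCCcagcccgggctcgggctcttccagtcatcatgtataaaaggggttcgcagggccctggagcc
The exact motif GGGAATTTCC starts 71, 97 and 73 bases before the start of Cxcl1, Cxcl2 and Cxcl3. This word was read from these 3 promoters. Their matches were thus fixed in advance, and the member share cannot be set against that of all genes. The word was searched on both strands in the 250 bases before the start. It was found for 4 of the 42 members with a promoter in the table (these 3 and Ccr3, 9.52%) and for 0.104% of 27025 genes. The looser GGGAANNNCC, which contains it, was found for 10 of the 42 members (23.8%) and for 5.62% of all genes. The 10 include these 3, for which the shared word makes a match certain, and a difference between the shares was not tested. A match describes the letters only, and factor binding was not measured.

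In Ki67- library 4, Cxcl2 was at 384 CPM and in the other 14 libraries at 0 to 4.34 CPM. That library held 2543 of the group's 2596 Cxcl2 counts, 876 of 884 counts of Ccl3 (99.1%), 330 of 331 of Ccl4 (99.7%) and 269 of 270 of Cxcl3 (99.6%). Ccl3 and Ccl4, monocyte and T cell attractants that overlap each other on chromosome 11, were at 132 and 49.8 CPM there. The other 14 libraries held at most 3.40 CPM of Ccl3 and 0.495 CPM of Ccl4. Cxcr2, the neutrophil receptor for Cxcl1, Cxcl2 and Cxcl3, was 2.93, 1.58, 1.98, 1.34 and 5.24 CPM after vismodegib, 5.53, 0.643, 0.119, 0.914 and 3.44 CPM in Ki67+ and 0.645, 2.12, 1.62, 33.4 and 0 CPM in Ki67- nests. It was called in neither comparison (log2 fold change 0.32, adjusted p = 0.869, and -1.53, adjusted p = 0.322), and without Ki67- library 4 the second value changed sign, to 1.24.

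Other genes were high in the same library. The neutrophil list, of which 3 of 7 genes were tested, summed to 2057 CPM there, against 24.4 to 392 CPM in the other Ki67- libraries, 20.2 to 916 CPM in Ki67+ and 41.1 to 578 CPM in vismodegib libraries. Most of that sum was S100a8 at 949 CPM and S100a9 at 1080 CPM, which inflamed keratinocytes also express. Of the more restricted neutrophil genes, Csf3r was at 22.5 CPM and Retnlg at 2.57 CPM, while Ly6g was at 0.151 CPM and Elane at 0. The 5 mast cell genes summed to 881 CPM there and to 625 CPM in Ki67+ library 1, against 98.4 to 336 CPM in the other 13. Il1b, an inducer of these chemokines, was at 323 CPM. The part of these cells in the library's chemokine values was not tested.

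**Figure D3:**
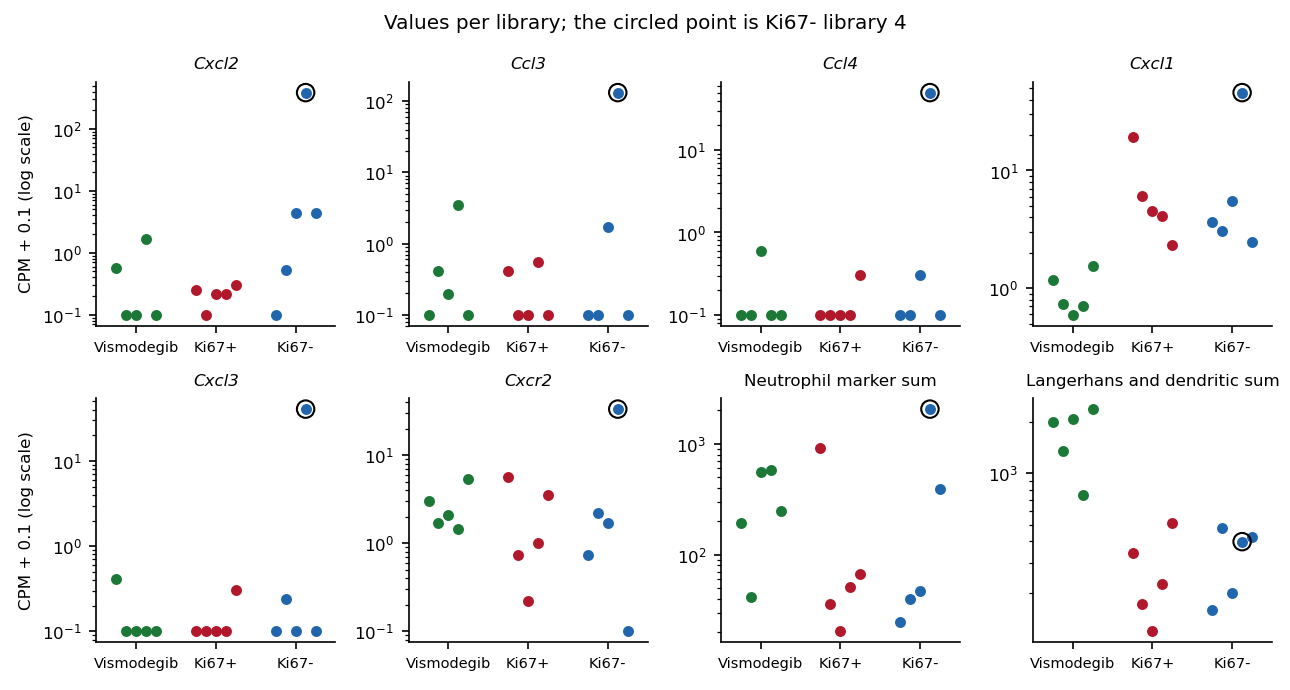
CPM + 0.1 on a log axis per library (points) by group for 6 genes and for the summed neutrophil and the summed Langerhans and dendritic cell markers, with Ki67- library 4 circled. The circled point is the highest of all 15 for Cxcl2 (384 CPM), Ccl3 (132), Ccl4 (49.8), Cxcl1 (45.7), Cxcl3 (40.6), Cxcr2 (33.4) and the neutrophil sum (2057), but not for the Langerhans and dendritic sum.

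Cxcl9 and Cxcl10, the interferon-inducible ligands of Cxcr3 on activated T cells, lie side by side on chromosome 5. Cxcl9 was 28.1, 17.6, 41.3, 14.2 and 23 CPM after vismodegib, 2.46, 8.68, 3.56, 9.83 and 8.49 CPM in Ki67+ and 1.61, 29.6, 5.45, 21.1 and 12.9 CPM in Ki67- nests. It did not overlap between vismodegib and Ki67+ nests and rose by 1.91 on the log2 scale (SE 0.58, edgeR adjusted p = 0.0222). Against Ki67- nests it was not called (log2 fold change 0.81, adjusted p = 0.286). The call ended without the low-count filter, with the Xist covariate, without vismodegib library 3 and without Ki67+ library 3 (adjusted p = 0.0541, 0.057, 0.0593 and 0.0559).

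Cxcl10 was 12.3, 17.7, 24.5, 4.74 and 13.4 CPM after vismodegib, 3.22, 4.5, 5.7, 2.4 and 0.809 CPM in Ki67+ and 2.1, 2.55, 1.62, 5.13 and 11.5 CPM in Ki67- nests. Vismodegib library 4 fell within the untreated ranges, so the groups overlapped. The log2 fold changes were 2.11 (SE 0.558, edgeR adjusted p = 0.00918) and 1.65 (SE 0.547, adjusted p = 0.0282). With the Xist covariate neither was called (adjusted p = 0.0581 and 0.0529), and the second was also lost without vismodegib library 3 or without Ki67- library 1, 2 or 3 (adjusted p = 0.0633 to 0.0857). Without Ki67- library 5 the second value was 2.33 (adjusted p = 0.00289). The overlapping gene Art3 moved the other way, with 23.0 ± 6.54 CPM after vismodegib, 49.7 ± 17.2 CPM in Ki67+ and 84.6 ± 41.0 CPM in Ki67- nests. Cxcr3 was below the filter, with 35 counts after vismodegib, 7 in Ki67+ and 0 in Ki67- nests.

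The promoter of Cxcl10 is shown because it holds both kinds of inflammatory motif searched. The promoter of Ccl19, which had no count in any library, holds both as well. It is the RefSeq sequence of the 250 bases before the start, GRCm38.p6 chr5:92348890-92349139, minus strand, with capitals for matches to GGGAANNNCC on either strand.
Cxcl10: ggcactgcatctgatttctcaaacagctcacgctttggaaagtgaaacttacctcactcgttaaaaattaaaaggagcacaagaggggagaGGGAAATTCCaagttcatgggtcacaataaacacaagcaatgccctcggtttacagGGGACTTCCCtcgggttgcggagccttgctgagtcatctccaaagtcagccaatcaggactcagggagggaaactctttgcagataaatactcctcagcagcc
The matches lie 159 to 150 bases and 103 to 94 bases before the start. The interferon-response type motif GAAANNGAAA, not in capitals, lies at 213 to 204 bases. That motif was found for 3 of the 42 members (Ccl19, Cxcl10 and Cxcl14; 7.14%) and for 3.46% of all genes.

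Ccl22 and Ccl17, the Ccr4 ligands typical of dendritic cells, lie with Cx3cl1 in 66.4 kb of chromosome 8 that hold no other protein-coding gene. Ccl22 was 14.8, 6.33, 19.8, 12 and 27.5 CPM after vismodegib, 0.307, 0.482, 0.713, 3.2 and 1.62 CPM in Ki67+ and 0, 0, 0, 0.906 and 0 CPM in Ki67- nests. Every vismodegib library lay above every untreated one. Ccl22 rose by 3.63 on the log2 scale (SE 0.695, edgeR adjusted p = 0.000804) and by 6.29 (SE 0.872, adjusted p = 3.65e-05). In counts, 645 after vismodegib stood against 6 in Ki67- nests, all from library 4, a ratio of 85.8 after scaling (95% interval 39.2 to 235, counting error only). Without that library the other 4 were at 0, and Ccl22 was at least 136-fold higher after vismodegib (floor of 3 counts over the group; edgeR adjusted p = 1.87e-05). Without Ki67+ library 4 the first value was 4.39 (adjusted p = 0.000465).

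Ccl17 was 0.308, 0, 2.18, 7.66 and 3.8 CPM after vismodegib, 0.154, 0, 0.356, 0.114 and 0.607 CPM in Ki67+ and 0, 1.13, 0.202, 1.81 and 2.09 CPM in Ki67- nests. Vismodegib libraries 1 and 2 lay within the untreated range. Against Ki67+ nests Ccl17 rose by 3.49 on the log2 scale (SE 1.1, edgeR adjusted p = 0.0258), and against Ki67- nests it was not called (log2 fold change 1.38, adjusted p = 0.276). The call was lost with limma-voom (2.42, adjusted p = 0.201), without vismodegib library 4 (2.68, adjusted p = 0.092) and without Ki67+ library 1, 2 or 4 (0.0539 to 0.0651).

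Ccr4, the receptor of both ligands on skin-homing and regulatory T cells, was 13.7, 16.9, 5.74, 15.9 and 6.29 CPM after vismodegib, 0.154, 1.61, 0.119, 0.343 and 0.607 CPM in Ki67+ and 0.323, 1.42, 0.404, 3.02 and 1.5 CPM in Ki67- nests. The groups did not overlap. It rose by 4.39 on the log2 scale (SE 0.679, edgeR adjusted p = 0.000111) and by 3.09 (SE 0.617, adjusted p = 0.000976), and both calls were kept in all 22 alternatives in which the gene could be fitted. Without Ki67+ library 2 the first value was 5.27 (adjusted p = 6.16e-05). Ccr6, the Ccl20 receptor of Langerhans cell precursors and some T cells, was 4.16, 3.32, 6.43, 3.04 and 8.12 CPM after vismodegib, 1.07, 0.482, 0.119, 0.571 and 0.202 CPM in Ki67+ and 0, 4.67, 0.404, 2.11 and 0.299 CPM in Ki67- nests. Against Ki67+ nests it did not overlap and rose by 3.31 (SE 0.832, adjusted p = 0.0064). Against Ki67- nests it was not called (log2 fold change 1.71, adjusted p = 0.0896), where Ki67- library 2 lay among the vismodegib libraries; without that library the value was 2.78 (adjusted p = 0.0131).

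**Figure D4:**
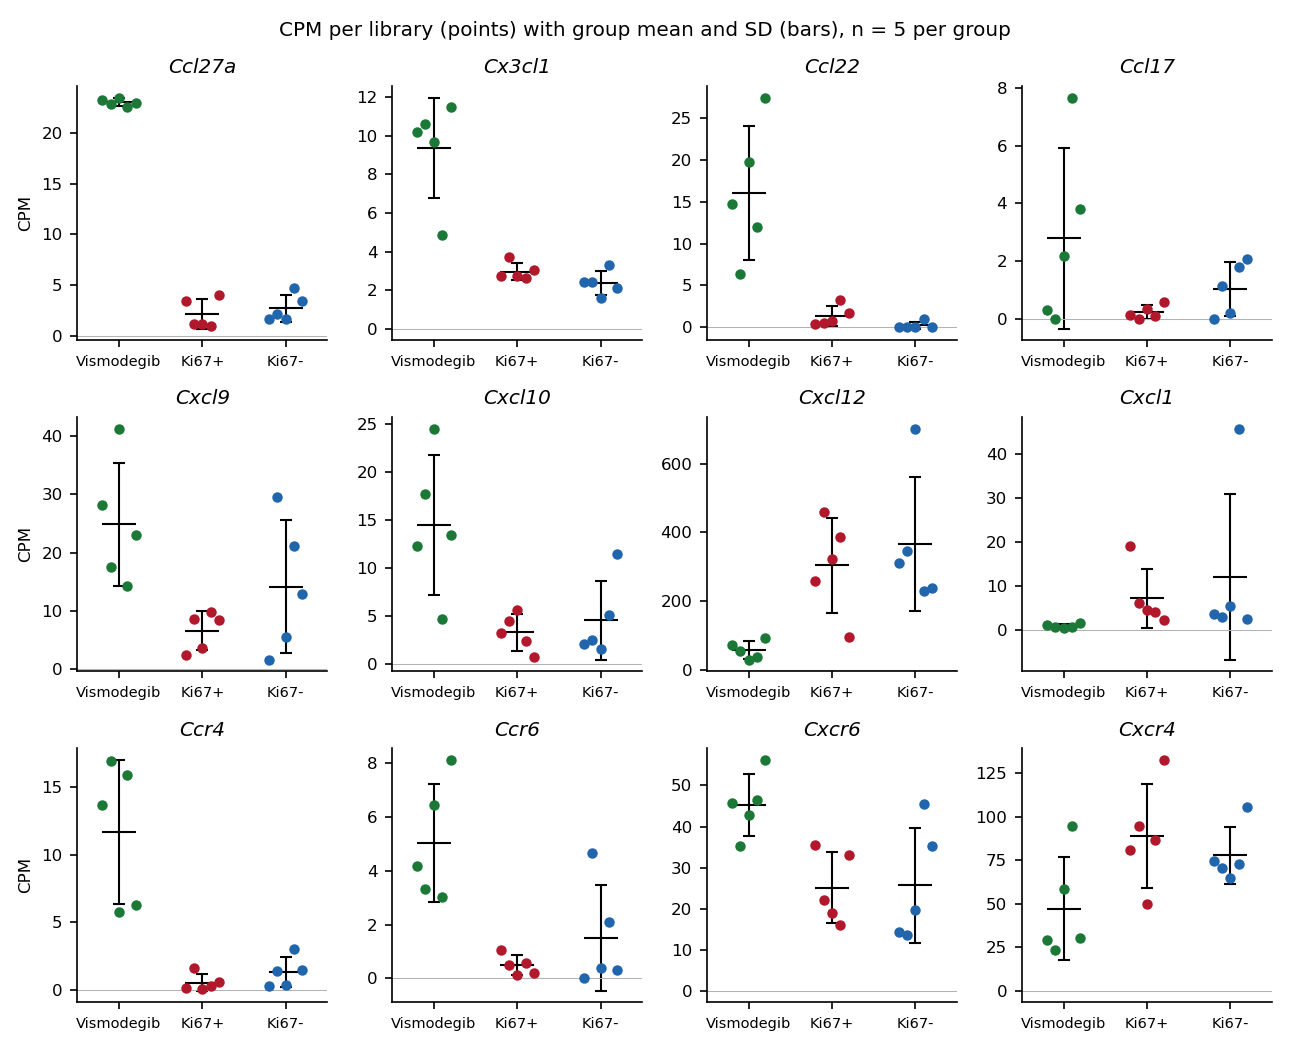
CPM per library (points, libraries 1 to 5 from left to right) with the group mean and SD (bars, n = 5) for the 11 genes called in at least 1 comparison and for Cxcr4, on a linear axis for each gene. Ccl27a, Cx3cl1, Ccl22 and Ccr4 are separated upwards after vismodegib and Cxcl12 and Cxcl1 downwards, while Ccl17, Cxcl10 and Cxcr6 overlap.

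Langerhans, dendritic and T cell markers moved in the same comparisons. The 9 Langerhans and dendritic cell genes summed to 745 to 2369 CPM after vismodegib, 119 to 513 CPM in Ki67+ and 160 to 481 CPM in Ki67- nests, with 8 and 6 of the 9 called higher and 0 lower. Cd207, which encodes langerin, was at 34.8 ± 7.35, 2.05 ± 2.44 and 2.62 ± 2.55 CPM. Of the 7 T cell genes tested, 6 were called higher and 0 lower against Ki67+ nests and 3 higher and 1 lower against Ki67- nests, and Cd8a did not pass the filter. The list's summed level, with Cd8a, overlapped, at 152 to 230, 121 to 227 and 121 to 227 CPM. Its largest parts were Cd247, at means of 69.4, 48.4 and 55.4 CPM, and Thy1, at 55.2, 90.3 and 97.8 CPM. Thy1 was the gene called lower, while Cd3e, Cd3g and Cd5 were called higher in both comparisons. Ptprc, the pan-leukocyte gene, was at 41.1 to 93.9, 8.04 to 24.9 and 10 to 50.4 CPM. The part of these cells in the rise of Ccl22, Ccl17, Ccr4, Ccr6 and Cxcr6 was not tested.

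The monocyte-attracting ligands were not called in either comparison. Ccl2, the main ligand of Ccr2, was 27.9, 2.85, 12.2, 6.68 and 6.81 CPM after vismodegib, 11.4, 1.93, 0.95, 1.94 and 4.25 CPM in Ki67+ and 0.323, 3.26, 2.42, 27.9 and 19 CPM in Ki67- nests. Ccl7, which shares that receptor, was 5.4, 1.11, 5.64, 5.47 and 4.45 CPM, 7.06, 0.965, 1.19, 0.914 and 4.25 CPM and 2.58, 0.85, 2.42, 18.7 and 3.74 CPM. The libraries highest in 1 of these genes within an untreated group were also highest in the other: library 1 of the Ki67+ and library 4 of the Ki67- group. Ccl8 was 4.01, 0.158, 10.4, 19.6 and 7.33 CPM after vismodegib, 13.2, 2.09, 1.19, 6.28 and 28.9 CPM in Ki67+ and 6.45, 16.1, 12.9, 27.9 and 26.8 CPM in Ki67- nests. Ccl9, a ligand of Ccr1, was 10.3, 0.949, 5.34, 15.9 and 3.93 CPM, 2.61, 0.804, 0.594, 4.68 and 14.2 CPM and 3.23, 7.37, 6.46, 14.6 and 4.19 CPM. Values of all 4 overlapped between groups. Their log2 fold changes against Ki67+ nests were 1.48 for Ccl2, 0.64 for Ccl7, -0.28 for Ccl8 and 0.71 for Ccl9, and against Ki67- nests 0.08, -0.36, -1.11 and 0.02, with adjusted p between 0.27 and 0.985. Without Ki67- library 4 the values against Ki67- nests were 0.83 for Ccl2 and 0.88 for Ccl7 (adjusted p = 0.512 and 0.319). Macrophage and monocyte markers, of which 1 of 8 was called higher in each comparison, summed to 88.4 to 315 CPM after vismodegib, 44.6 to 190 CPM in Ki67+ and 90.2 to 248 CPM in Ki67- nests.

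Ccl11 (eotaxin), an eosinophil attractant acting through Ccr3, was 4.78, 2.06, 2.28, 1.58 and 0.917 CPM after vismodegib, 5.07, 0.965, 0.832, 0.571 and 2.43 CPM in Ki67+ and 1.77, 1.84, 0, 3.17 and 0 CPM in Ki67- nests. Ccl1, the ligand of Ccr8, was 1.7, 0.791, 3.36, 1.34 and 1.44 CPM, 2.15, 0, 0.238, 0.229 and 0 CPM and 0.161, 2.12, 0.404, 1.66 and 0 CPM. Neither was called (log2 fold change 0.25 and 0.74 for Ccl11, 1.70 and 0.96 for Ccl1), and Ccl1 reached 3.54 (adjusted p = 0.0188) against Ki67+ nests once their library 1 was left out. Ccr8 itself was below the filter, with 43 counts after vismodegib, 7 in Ki67+ and 8 in Ki67- nests. Xcl1 (lymphotactin), made by T and natural killer cells, was 7.86, 3.32, 9.8, 3.04 and 3.54 CPM after vismodegib, 2.46, 0.643, 0.594, 1.14 and 2.63 CPM in Ki67+ and 0.484, 2.41, 0.202, 6.19 and 0.898 CPM in Ki67- nests. All its vismodegib values lay above the Ki67+ ones, yet the test fell short (log2 fold change 1.90, SE 0.703, edgeR adjusted p = 0.0536), as it did against Ki67- nests (1.41, adjusted p = 0.124). Against Ki67+ nests Xcl1 was called in 8 of 22 alternatives, with DESeq2, limma-voom and only the 2 groups compared (adjusted p = 0.0241, 0.0262 and 0.0132), without Ki67- library 1, 3, 4 or 5, and without 4 and 5 together. Ki67- library 4 decided the call against Ki67- nests, where Xcl1 was at 2.40 (adjusted p = 0.0113) without it, at 2.34 (adjusted p = 0.0254) without libraries 4 and 5, and at 1.98 (adjusted p = 0.0339) with limma-voom. Xcr1, its receptor on cross-presenting dendritic cells, was 6.01, 1.11, 3.36, 9.48 and 4.71 CPM, 2.46, 1.45, 0.832, 0.114 and 8.49 CPM and 1.45, 3.54, 0.202, 2.72 and 4.04 CPM and was not called (log2 fold change 0.94 and 1.03). Ccl6, a myeloid ligand that reached 10 counts in 6 libraries but not the filter, was 0.617, 1.42, 0.99, 1.46 and 0.262 CPM after vismodegib, 0.154, 0.161, 0.475, 1.14 and 1.21 CPM in Ki67+ and 1.45, 0.708, 8.08, 20.1 and 4.49 CPM in Ki67- nests. Its counts were 37, 22 and 217, with 61.3% of the last in library 4. Ccl5, a T cell attractant, held 39, 23 and 21 counts, and Ccl12, a Ccr2 ligand, 9, 22 and 56.

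Cxcl12, the ligand of Cxcr4 that retains leukocytes and stem cells in their niches, had the largest fall in CPM of all members tested. It was 72.4, 53, 28.4, 37.9 and 91.8 CPM after vismodegib, 257, 458, 323, 386 and 94.5 CPM in Ki67+ and 311, 346, 702, 229 and 238 CPM in Ki67- nests. The highest vismodegib library, 5, lay just below the lowest untreated one, Ki67+ library 5, so the groups did not overlap. Means were 56.7 ± 25.7, 304 ± 139 and 365 ± 195 CPM, and Cxcl12 fell, with log2 fold changes of -2.42 (SE 0.441, edgeR adjusted p = 0.000845) and -2.69 (SE 0.445, adjusted p = 0.000355). Both calls were kept in all 23 alternatives. The 7 fibroblast markers summed to 410 to 3539 CPM after vismodegib, 1627 to 5663 CPM in Ki67+ and 2425 to 4544 CPM in Ki67- nests. Of them 2 (Pdgfra and Fbln1) fell and 0 rose in each comparison. Pdgfra went from 101 ± 49.6 and 123 ± 30.2 to 28.9 ± 23.9 CPM (log2 fold changes -1.80, with adjusted p = 0.0177, and -2.08, adjusted p = 0.00705). Fbln1 had log2 fold changes of -1.82 and -2.07. The collagen genes Col1a1, Col1a2 and Col3a1 had lower means after vismodegib but were not called. Lum (0.25 and 0.05) and Dcn (0.18 and -0.24) were not called either. The part of fibroblasts in the fall of Cxcl12 was not tested. The homeostatic ligand Cxcl13, which acts on Cxcr5 of B cells, had 43 counts after vismodegib, 3 in Ki67+ and 41 in Ki67- nests, of which 39 came from library 2.

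Cxcr4 was 29.4, 23.7, 58.4, 94.6 and 30.5 CPM after vismodegib, 81.1, 94.7, 50.1, 86.5 and 133 CPM in Ki67+ and 74.9, 70.5, 64.8, 73.1 and 106 CPM in Ki67- nests. Vismodegib library 4 lay among the untreated libraries, and library 3 lay above the lowest Ki67+ one. The log2 fold changes were -0.91 (SE 0.332, edgeR adjusted p = 0.0537) and -0.71 (SE 0.331, adjusted p = 0.111). Without vismodegib library 4 they were -1.32 (adjusted p = 0.00218) and -1.13 (adjusted p = 0.00589). With all libraries, DESeq2, limma-voom and the stricter filter called the first (adjusted p = 0.0271, 0.0263 and 0.045). Limma-voom also called the second (-0.86, adjusted p = 0.0459). Without Ki67+ library 3 the first was called as well (-1.06, adjusted p = 0.0289).

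Cxcr6, the Cxcl16 receptor of resident T cells, was 45.8, 35.3, 42.9, 46.4 and 56.3 CPM after vismodegib, 35.5, 22, 19, 16.1 and 33 CPM in Ki67+ and 14.4, 13.7, 19.6, 45.4 and 35.3 CPM in Ki67- nests. Ki67+ library 1 and Ki67- libraries 4 and 5 reached the lowest vismodegib values. It rose by 0.86 on the log2 scale against Ki67+ nests (SE 0.309, edgeR adjusted p = 0.0488), and this call was lost in 10 of 23 alternatives, with adjusted p up to 0.119: without the filter, with the Xist covariate, and without vismodegib library 1, 3, 4 or 5, Ki67+ library 2, 3 or 4, or Ki67- library 3. Against Ki67- nests the value was 0.82 (adjusted p = 0.0509), and it was called in 8 of 23 alternatives, as without Ki67- library 4 (1.13, adjusted p = 0.00708). The overlapping gene Fyco1 rose by 0.49 against Ki67+ nests (adjusted p = 0.0101).

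Ccr2, the receptor of inflammatory monocytes, was 40.4, 11.2, 41.8, 46.7 and 61 CPM after vismodegib, 24, 1.93, 4.04, 12.5 and 24.7 CPM in Ki67+ and 4.68, 11.9, 3.84, 22.5 and 17.4 CPM in Ki67- nests. Vismodegib library 2 was the one within the untreated ranges. The log2 fold changes were 1.60 (SE 0.644, edgeR adjusted p = 0.0819) and 1.73 (SE 0.647, adjusted p = 0.0535). The first was called with limma-voom (2.06, adjusted p = 0.0181) and without vismodegib library 2 (1.84, adjusted p = 0.0442). The second was called in 9 of 23 alternatives, as without Ki67- library 4 (2.07, adjusted p = 0.0347). Ccr9, the Ccl25 receptor, was 16.3, 6.01, 11.2, 11.1 and 18.5 CPM, 7.52, 9.16, 7.25, 3.66 and 8.09 CPM and 9.36, 11.2, 8.68, 10.6 and 15.1 CPM, with log2 fold changes of 0.83 (adjusted p = 0.0567) and 0.20 (adjusted p = 0.653).

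The remaining receptors were low and not called with all libraries. Ccr1, of monocytes and neutrophils, was 0.925, 0.158, 1.48, 3.04 and 1.7 CPM after vismodegib, 5.68, 0, 0.95, 2.29 and 6.47 CPM in Ki67+ and 0.807, 2.97, 2.83, 13.4 and 5.54 CPM in Ki67- nests, with log2 fold changes of -1.02 and -1.78 (adjusted p = 0.415 and 0.122), the second -1.03 (adjusted p = 0.371) without Ki67- library 4. Ccr10, the receptor of Ccl27a, was 2.62, 1.42, 1.09, 1.58 and 0.131 CPM, 0.614, 2.09, 1.19, 2.86 and 2.02 CPM and 1.13, 0.85, 3.84, 1.06 and 4.34 CPM, with log2 fold changes of -0.37 and -0.71 (adjusted p = 0.718 and 0.427). Its ligand thus rose in nests where a change of the receptor was not detected. Cxcr5, of B cells and follicular T cells, was 3.85, 5.38, 4.06, 2.92 and 4.71 CPM, 3.69, 2.57, 4.87, 4.34 and 2.43 CPM and 1.77, 1.27, 3.03, 3.93 and 1.35 CPM, with log2 fold changes of 0.21 and 0.88 (adjusted p = 0.727 and 0.0961). Without Ki67- library 4 the second value was 1.18 and called (adjusted p = 0.0354). Cxcr5 overlaps Bcl9l and Ccr10 overlaps Cntnap1, and reads of overlapping genes cannot be told apart here. Ccr7, which guides dendritic cells to lymph nodes, was below the filter with 48 counts after vismodegib, 14 in Ki67+ and 31 in Ki67- nests. Its ligands were at 0 or, for Ccl21a, at 1 count in all libraries together.

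Between the untreated groups, the question was whether Ki67- and Ki67+ nests differ in chemokines, and 0 of the 32 members were called, beside 0.174% of all genes. The smallest edgeR adjusted p was 0.59, for Ccl22 (log2 fold change -2.66, SE 0.923), the 1 member with an unadjusted p under 0.05 (0.01). Ccl22 was at 1.26 ± 1.19 CPM in Ki67+ and 0.181 ± 0.405 CPM in Ki67- nests, and the groups overlapped. No member was without overlap between the untreated groups, beside 1.17% of all genes. Log2 fold changes ran from that of Ccl22 to 2.11 for Ccl17, with a median of 0.47 beside 0.01 over all genes. DESeq2 and limma-voom also called 0 members.

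Genes that shape chemokine signals outside this set were described by lists. Beside their counts, 12.6% of all genes tested rose and 13.4% fell against Ki67+ nests and 15.4% rose and 16.5% fell against Ki67- nests, with medians of -0.02 and -0.03. Of 6 atypical receptors and scavengers tested, which bind chemokines without G protein signalling, 3 rose against Ki67+ and 2 against Ki67- nests and 0 fell, beside 26.0% and 31.9% of all genes called in either direction. The list's median log2 fold change was 1.93 and 1.27, beside -0.02 and -0.03 over all genes. Without Ki67- library 4, 3 rose in the second comparison. Ackr4, which removes Ccl19, Ccl21 and Ccl25, rose from 25.3 ± 4.04 and 26.4 ± 11.2 to 207 ± 28.4 CPM (log2 fold changes 3.03, edgeR adjusted p = 2.49e-07, and 2.97, adjusted p = 2.7e-07). Ackr3, which binds Cxcl12, rose from 5.28 ± 2.97 and 6.74 ± 4.93 to 22.2 ± 8.69 CPM (2.07, adjusted p = 0.00499, and 1.71, adjusted p = 0.0134). Ackr2, a scavenger of inflammatory CC chemokines, rose against Ki67+ nests (2.62, adjusted p = 0.0325) and was at 1.89 (adjusted p = 0.0914) against Ki67- nests.

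Of 18 genes of receptor signalling and desensitization, 5 rose and 4 fell against Ki67+ and 3 rose and 4 fell against Ki67- nests (median log2 fold change 0.50 and 0.08, beside -0.02 and -0.03), where 26.0% and 31.9% of all genes were called. Elmo1, an adaptor for Rac activation in migrating cells, fell, with log2 fold changes of -2.86 and -2.82 (edgeR adjusted p = 4.64e-08 and 3.95e-08), and Pik3cg, a kinase that G protein subunits activate, fell with -2.13 and -2.18 (adjusted p = 9.66e-06 and 6.4e-06). Gnai1, an inhibitory G protein subunit, rose by 1.38 and 1.15 (adjusted p = 0.000595 and 0.00238). The related subunit Gnai3 rose by 0.61 and 0.89 (adjusted p = 0.0151 and 0.000856). Arrb1, an arrestin that turns receptors off, rose by 1.27 and 1.06 (adjusted p = 0.00409 and 0.0114).

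Among 19 NF-kappaB factors and inducers, 2 rose and 0 fell against Ki67+ nests and 1 rose and 4 fell against Ki67- nests (median 0.36 and -0.10, beside -0.02 and -0.03), where 26.0% and 31.9% of all genes were called. Ki67- library 4 decided these counts. Without it 5 rose and 1 fell in the first comparison, and 3 rose and 2 fell in the second, with a median of 0.26. Ifngr1, a subunit of the interferon gamma receptor, rose in both (1.57, adjusted p = 0.00053, and 1.34, adjusted p = 0.00171). Il1r1, the receptor of interleukin-1, fell by 0.73 against Ki67- nests (adjusted p = 0.0012) and was at -0.68 (adjusted p = 0.00344) without library 4. Tnfaip3, an NF-kappaB inhibitor, fell by 1.02 there (adjusted p = 0.00353) and was at 139 CPM in library 4, the highest of its group; without it the value was -0.66 (adjusted p = 0.00567). Il1b had a log2 fold change of -3.87 (adjusted p = 0.0349) against Ki67- nests, whose mean of 70.1 CPM held 323 CPM in library 4, and without that library the call ended (-0.53, adjusted p = 0.543). Nfkb2, an NF-kappaB subunit at 73.5 CPM in library 4, went from -0.61 (adjusted p = 0.0396) to -0.34 (adjusted p = 0.152).

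Of 13 proteases and heparan sulfate carriers that cleave or hold chemokines, 3 rose and 3 fell against Ki67+ and 4 rose and 3 fell against Ki67- nests (median 0.17 and 0.25, beside -0.02 and -0.03), where 26.0% and 31.9% of all genes were called. Without Ki67- library 4, 6 rose and 3 fell in the second comparison. Dpp4, the peptidase that inactivates Cxcl12 and other chemokines, rose by 0.99 (adjusted p = 0.0298) and 1.63 (adjusted p = 0.00107). The log2 fold changes of the syndecan Sdc3 were -1.85 and -1.65 (adjusted p = 2.42e-05 and 6.09e-05), and those of the membrane protease Mmp14 -1.41 and -1.67 (adjusted p = 1.56e-05 and 2.52e-06). Gpc3, a glypican, fell from 37.5 ± 15.7 and 34.6 ± 8.35 to 11.8 ± 4.67 CPM (-1.66, adjusted p = 0.00046, and -1.54, adjusted p = 0.000783). Sdc4, another syndecan, rose by 0.48 and 0.46 (adjusted p = 0.0206 and 0.0225).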

How the data were processed

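Polyadenylated RNA of 15 laser-captured libraries, 5 per group, was analysed from 1 deposited table per library. Reads were aligned with GSNAP to GRCm38, per the submitters' processing notes, and the deposited counts are, per the file headers, reads with a unique alignment to a gene model. Per the file headers, the deposited RPKM values were normalized by library size factors; they were used only to order genes within a group. The sources used here do not give the aligner's version, the annotation release or the use of strand, so reads of overlapping genes cannot be told apart and near-identical copies lose reads. Of the 36528 identifiers, 31049 (85.0%) matched a symbol in RefSeq's annotation of GRCm38.p6; the rest, with 2.26% to 3.93% of the counts in a library, were fitted without a name.

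Counts were scaled by TMM (factors 0.937 to 1.05), filtered with filterByExpr (minimum count 10, minimum total 15; 17282 genes kept) and tested in edgeR 4.0.16 (R 4.3.3) by robust, two-sided quasi-likelihood F tests in a single fit of all 15 libraries without covariates (12 residual degrees of freedom). Benjamini-Hochberg adjustment ran over the 17282 genes, and an adjusted p under 0.05 is what called, rose and fell refer to. The SE is the log2 fold change divided by the square root of F. Intervals on count ratios are exact 95% intervals. Promoters came from RefSeq's table for GRCm38.p6, which held 42 of the 57 members. No pair of libraries in a group was a duplicate (chi-square per degree of freedom 14.33 to 46.8). The scripts were tested on simulated data.

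The values of 1 member, called in no comparison, are not reported here, though counts and sums over members include it. Members and gene lists were chosen with earlier results of these data known. Members called, or with at least 10 counts in 5 libraries, are given by library, other members by counts, and at most 4 genes per pathway list by smallest adjusted p. The 23 alternatives were RLE size factors as DESeq2 uses them, the Wald test of DESeq2 1.42.0, limma-voom 3.58.1, no filter, a filter at a minimum count of 50, a fit of the compared groups alone, an Xist covariate, each of the 15 libraries left out and Ki67- libraries 4 and 5 left out together.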

Additional observations from a re-analysis of the deposited data

Results flagged for a closer look

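Members that passed the filter were examined. Cxcl2, Cxcl3, Ccl3, Ccl4 and Ccl6 did not pass it and were added for a high count in 1 library. An outlying library was thus favoured in advance for these added genes. Among the 37 members, 102 sets of 5 libraries were examined for 1 library far from the other 4 of its group (Dixon's ratio above 0.71). There were 18 such outliers, where chance gives about 1 in 20 for normally distributed values. The rate for skewed values near 0, which many of these genes have, was not tested. Of these, 8 were Ki67- library 4: Cxcl2 at 384 CPM (0 to 4.34 in the other 4), Cxcl16 at 212 (42.8 to 65.6), Ccl3 at 132 (0 to 1.62), Ccl4 at 49.8 (0 to 0.202), Cxcl1 at 45.7 (2.39 to 5.45), Cxcl3 at 40.6 (0 to 0.142), Cxcr2 at 33.4 (0 to 2.12) and Ccl7 at 18.7 CPM (0.85 to 3.74). Without that library Cxcl1 was still called lower after vismodegib than in Ki67- nests, at -2.06 in place of -3.81 on the log2 scale (edgeR adjusted p = 0.0131).

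Ki67+ library 1 was high for Cxcl16 at 126 CPM (36.1 to 60.1 in the other 4), Cxcl1 at 19.0 CPM (2.22 to 5.95) and Ccl1 at 2.15 CPM (0 to 0.238). Ki67+ library 5 was high for Xcr1 at 8.49 CPM (0.114 to 2.46). Ki67- library 5 was high for Cxcr4 at 106 CPM (64.8 to 74.9) and low for Ccl28 at 4.04 CPM (6.79 to 7.91), and Ki67- library 3 was high for Cxcl12 at 702 CPM (229 to 346). After vismodegib, library 4 was high for Ccl3 at 3.40 CPM (0 to 0.316) and low for Cx3cl1 at 4.86 CPM (9.70 to 11.5), and library 2 was low for Ccl7 at 1.11 CPM (4.45 to 5.64).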

How the results depend on the processing

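Of the 18 called member results, 12 kept their call in every one of the 23 alternatives in which they could be fitted, and 0 changed sign. Without Ki67- libraries 4 and 5 the values against Ki67- nests grew to 3.67 for Ccl27a, 3.94 for Ccr4 and 2.78 for Cxcl10. The 6 others were Ccl17, Cxcl1, Cxcl9, Cxcr6 and Cxcl10 against Ki67+ and Cxcl10 against Ki67- nests. Of 44 other results, not called, 32 were never called. The 9 members higher than in Ki67+ nests became 4 under the stricter filter, which tests 13 members, and 7 to 12 with 1 library left out; the 2 lower became 1 with the Xist covariate and 1 to 3 with 1 library left out. The 5 members higher than in Ki67- nests became 9 with limma-voom, 3 under the stricter filter, 9 without Ki67- libraries 4 and 5 (an alternative chosen after seeing the data) and 4 to 9 with 1 library left out. The 2 lower became 1 with DESeq2, which gives no adjusted p for Cxcl1, 1 under the stricter filter, 5 without a filter, with 51 members tested, and 2 to 4 with 1 library left out. Smaller groups lower the filter's own requirement, so up to 35 members were tested there. Members below the main filter were called in some of these fits, Ccl20 in both comparisons and Ccl6 and Cxcl2 against Ki67- nests. Without Ki67- library 4, Ccl6 and Cxcl2 were not among the called members. Between untreated groups the count was 0 throughout.

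Sign changes touched 12 results, all uncalled; the cause was not tested. Against Ki67+ nests, Ccl28 was at -0.06 with limma-voom and Cx3cr1 at -0.12 with the Xist covariate. Against Ki67- nests, limma-voom gave Ccl7 0.28, Ccl9 -0.24 and Cxcr2 0.67, the Xist covariate gave Ccl2 -0.27 and Ccl9 -0.10, and leaving out Ki67- libraries 4 and 5 gave Ccl7 1.19 and Cxcr2 0.82. With each library left out in turn, log2 fold changes against Ki67+ nests ran from -0.18 to 0.99 for Ccl11, -0.07 to 0.31 for Ccl28, -0.87 to 0.56 for Ccl8, -0.29 to 0.59 for Cx3cr1 and -0.09 to 1.11 for Cxcr2. Against Ki67- nests they ran from -0.57 to 0.83 for Ccl2, -0.36 to 0.06 for Ccl25, -0.64 to 0.88 for Ccl7, -0.48 to 0.46 for Ccl9, -0.07 to 0.98 for Cx3cr1, -0.59 to 0.12 for Cxcl14 and -1.95 to 1.24 for Cxcr2. No paired analysis was possible because the labels give no replicate numbers. Members under 10 counts cannot be compared at this depth.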

Other observations

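Ccl27a varied less between vismodegib libraries than counting alone gives on average. Its coefficient of variation over the 5 CPM values was 1.41%, and counting error at these depths is 7.59%; the median over members after vismodegib was 50% and the lowest that of Ccl27a. In the same nests its receptor Ccr10 ranged from 0.131 to 2.62 CPM.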
